A study of Rattus norvegicus with 2 samples.

Results

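The genes described here are the 4 precursors of the opioid peptides, Penk, Pdyn, Pomc and Pnoc, and the 4 opioid receptors, Oprd1, Oprk1, Oprm1 and Oprl1. They were chosen by name, as the array probes outside the controls whose transcript accession belongs to one of these 8 rat genes, and the rule itself uses no measured value. All 8 were on the array, out of 16581 genes that could be named there, with 11 probes in all: 5 genes had 1 probe and 3 had 2. Every one of the 11 probes was well above background on both arrays, so no member was lost to a filter.

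The tissue was the solitary tract nucleus (NTS) of the dorsal medulla, where baroreceptor and visceral afferents end, taken from male and from female spontaneously hypertensive rats (SHR) at 9 weeks of age. The strain develops high blood pressure, and no other strain or treatment was included, so the male and the female pool differ by the labels only in sex. RNA of 5 rats of a sex, 100 ng from each, was pooled and read on 1 single-colour Agilent array per sex. There are no replicate arrays: the variation between animals is unknown, no test is possible, and each difference compares 2 pools. In such bulk tissue, fewer cells of a type and less RNA per cell cannot be told apart.

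Opioid peptides are cut from large precursor proteins in the secretory granules of neurons. Penk gives the enkephalins, Pdyn the dynorphins, Pomc beta-endorphin together with ACTH and the melanocortins, and Pnoc nociceptin. Enkephalins act mainly on the delta receptor (Oprd1) and also on the mu receptor (Oprm1), beta-endorphin on mu and delta, dynorphins on the kappa receptor (Oprk1) and nociceptin on its own receptor (Oprl1). All 4 receptors couple to inhibitory G proteins, which open inwardly rectifying potassium channels and close presynaptic calcium channels. In the NTS, opioid receptors sit on visceral afferent terminals and on local neurons and are known to modulate the baroreflex, breathing and feeding, and Pomc is expressed by a small group of NTS neurons.

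Between the male and the female pool, none of the 8 opioid genes differed by 1.5-fold, which is 0.58 on the log2 scale. The share of all 13435 measured named genes past 1.5-fold was 2.31%, so a count of 0 among 8 genes is near that background. Past a lower threshold, a log2 difference of 0.32, there was 1 member, Oprk1, higher in the female pool, against 8.17% of all measured genes in either direction and 5.11% on the female side. The median difference of the 8 genes, female minus male on the log2 scale, was 0.066, and that of all measured genes was 0.016. The member median turned to -0.014 with the brightest probe of each gene and to -0.036 with the dimmest 25% of probes left out, so it has no settled direction. Of the 11 probes, 7 were higher in the female and 4 in the male pool. Of all 13435 measured named genes, 7457 were higher in the female and 5978 in the male pool. Under at least 1 of 7 other ways to correct or scale the signal, 5 of the 11 probes turned sign, at values near 0. Among the 7, the authors' deposited table gave nearly the same differences. The share of all probes that turned sign was not counted.

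Signals are given as scaled signal, on which every array has its 75th percentile at 100, with the error that the image program attached to each spot, which is mostly a fixed share of the signal. A probe's brightness depends on its sequence as well as on the amount of transcript. Signals of different probes are therefore not read as relative transcript amounts, and the comparison made for each probe is between the arrays. Where signals of several genes are summed or put in order below, this describes probe signal only.

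**Figure D1:**
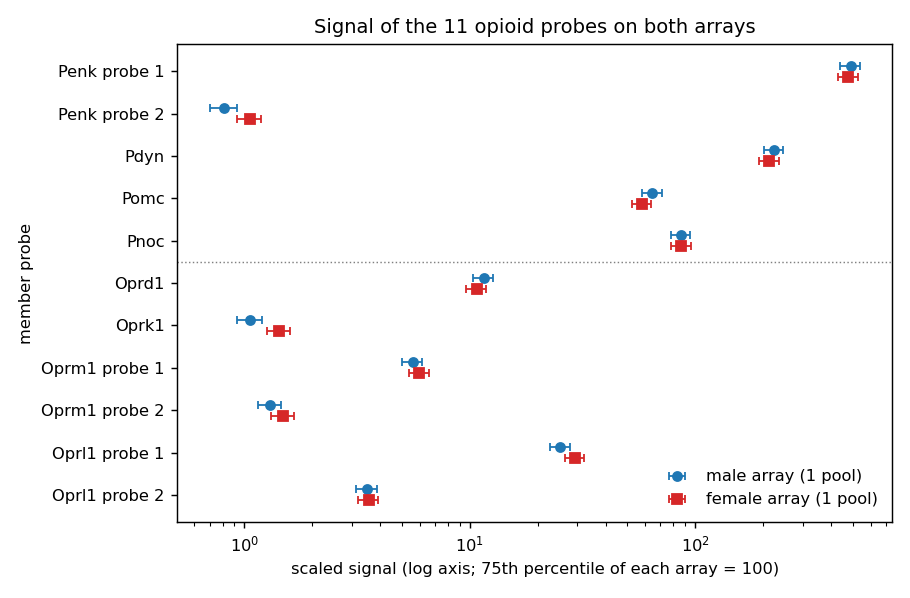
Scaled signal of each opioid probe (log axis, 75th percentile of an array = 100) in the male pool (circles) and in the female pool (squares), with precursors above and receptors below the dotted line. Bars are the image program's error for that spot, not variation between animals. The bars of the arrays overlap for 9 of the 11 probes and stand apart for Oprk1 and the dim Penk probe. Both lie in the dimmest quartile of the signal range, where 18.0% and 23.0% of genes differed by at least as much. The share of all measured probes with bars apart was not counted.

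Among the precursors, Penk was read by 2 probes that carry the same transcript accession. Its bright probe (A_42_P749184) had a scaled signal of 489 ± 48.9 in the male pool and 477 ± 47.7 in the female pool. The pools were within 1.03-fold here, a log2 difference of -0.036 that became 0.038 with spike-in centring, which sets the arrays level on added control RNA and was tried after the data were seen. The dim probe (A_44_P497807) read 0.814 ± 0.110 in the male and 1.06 ± 0.127 in the female pool, a log2 difference of 0.38. The mean over both probes, 0.17 on the log2 scale, describes neither of them, and the value of the bright probe is the one read far above background.

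Pdyn, the dynorphin precursor, had a scaled signal of 223 ± 22.3 in the male pool and 213 ± 21.3 in the female pool. The log2 difference was -0.068, smaller than the program's error of that difference, 0.20, and became 0.0061 with spike-in centring. Pnoc, the nociceptin precursor, gave 86.3 ± 8.63 in the male and 86.8 ± 8.68 in the female pool, with a log2 difference of 0.0083. Its signals on the arrays were the closest among the 11 probes.

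Pomc had a scaled signal of 64.5 ± 6.45 in the male pool and 58.1 ± 5.81 in the female pool, 1.11-fold higher in the male pool. The log2 difference of -0.15 was the largest toward males among the 11 probes and again below the program's error of 0.20. In the same quartile of the signal range, 9.91% of measured genes differed by at least as much. Because Pomc is strongly expressed in the pituitary and the arcuate nucleus of the hypothalamus, markers of both were read beside it. Of 7 pituitary genes, Prl, Tshb and Cga were not well above background on either array, and the summed scaled signal of the 4 measured genes was 25.3 in the male and 24.7 in the female pool. Of these, Lhb held most, with 19.1 and 19.4, followed by Pou1f1 with 4.73 and 3.75, 1.26-fold higher in the male pool, Fshb with 0.972 and 0.999 and Gh1 with 0.516 and 0.493. Of 10 hypothalamic genes, Kiss1 and Sim1 were not well above background on either array, and the summed scaled signal of the 8 measured ones was 37.7 in the male and 39.8 in the female pool. Hcrt read 17.3 and 18.8, Avp 6.98 and 7.26, Ghrh 5.86 and 5.40, and Agrp 2.31 and 3.08, 1.33-fold higher in the female pool. The part of either tissue in the Pomc signal was not tested.

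Of the 8 genes, 4 had an entry in the RefSeq promoter table of assembly GRCr8: Pdyn, Pomc, Oprd1 and Oprm1, the last with 2 start sites. The 250 bases upstream of the start are shown for the 2 precursors among them, since their probes were read far above background on both arrays. Capitals mark the TATA box hexamer TATAAA, searched on the strand of the gene, and the nuclear receptor hexamer AGGTCA, searched on both strands.
Pomc, chr6:32659103-32659352, plus strand: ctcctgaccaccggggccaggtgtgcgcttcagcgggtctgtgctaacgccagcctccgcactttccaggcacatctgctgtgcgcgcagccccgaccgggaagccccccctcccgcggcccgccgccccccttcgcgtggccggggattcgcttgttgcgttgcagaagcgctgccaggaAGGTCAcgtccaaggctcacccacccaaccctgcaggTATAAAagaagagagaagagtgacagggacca
Pdyn, chr3:137366504-137366753, minus strand: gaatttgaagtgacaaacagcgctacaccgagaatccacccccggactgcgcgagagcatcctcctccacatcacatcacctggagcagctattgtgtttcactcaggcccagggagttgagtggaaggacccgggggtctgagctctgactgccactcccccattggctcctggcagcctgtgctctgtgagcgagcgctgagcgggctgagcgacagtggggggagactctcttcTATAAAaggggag

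The TATAAA hexamer began 32 bases before the annotated start in Pomc and 13 bases before it in Pdyn. It was present in 8.06% of 33469 upstream windows of the same length, and in neither the Oprd1 window nor the 2 Oprm1 windows. AGGTCA occurred once in the Pomc window, 69 bases before the start, and in 14.1% of all windows. It did not occur in the windows of Pdyn, Oprd1 or Oprm1. The palindromic oestrogen response element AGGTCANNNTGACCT and the cAMP response element TGACGTCA, searched on both strands, were in none of the 5 windows and in 0.00896% and 1.59% of all windows. The G and C content was 66.4% for Pomc, 59.2% for Pdyn, 79.6% for Oprd1, and 58.4% and 36.4% for the 2 starts of Oprm1. These are matches of letters in a reference genome, and the arrays did not measure binding or promoter use.

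Among the receptors, Oprk1, the kappa receptor on which dynorphins act, stood furthest apart between the arrays. Its single probe had a scaled signal of 1.06 ± 0.134 in the male pool and 1.43 ± 0.163 in the female pool, 1.35-fold higher in the female pool. The error ranges of the program did not overlap, and the log2 difference of 0.43 was larger than its program error of 0.25. The probe is dim, however: in the dimmest quartile of the signal range, up to a scaled signal of 2.23, 29.99% of genes differed by at least 0.32 on the log2 scale and 18.0% by at least as much as Oprk1. With normexp background correction the log2 difference was 0.12, and without any background correction it was 0.23.

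Oprm1, the mu receptor, had 2 probes, each carrying the accession of a different transcript variant. The probe of accession NM_001304740 read 5.58 ± 0.566 in the male and 5.98 ± 0.604 in the female pool, a log2 difference of 0.099. The probe of accession NM_001038597 read 1.30 ± 0.154 in the male and 1.49 ± 0.167 in the female pool, a log2 difference of 0.19. Both were higher in the female pool, by less than their program errors of 0.21 and 0.23. With normexp correction they gave -0.0091 and 0.018, so no direction is given for Oprm1.

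Oprl1, the nociceptin receptor, also had 2 probes, here of 1 accession. The brighter (A_44_P408520) had a scaled signal of 25.2 ± 2.52 in the male pool and 29.3 ± 2.93 in the female pool, 1.16-fold higher in the female pool. Its log2 difference of 0.22 just exceeded its program error of 0.20, and 7.07% of genes in the same quartile of the signal range differed by at least as much. The other probe (A_64_P125150) read 3.50 ± 0.360 and 3.57 ± 0.365, a log2 difference of 0.027. The probes of this gene therefore did not give the same size of difference, and that of the dimmer one changed sign under quantile, median and loess scaling.

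Oprd1, the delta receptor and the main target of enkephalins, had a scaled signal of 11.497 ± 1.15 in the male pool and 10.7 ± 1.08 in the female pool. It was the one receptor that was higher in the male pool, with a log2 difference of -0.10. This was below its program error of 0.20, and 34.8% of genes in the same quartile of the signal range differed by at least as much.

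**Figure D2:**
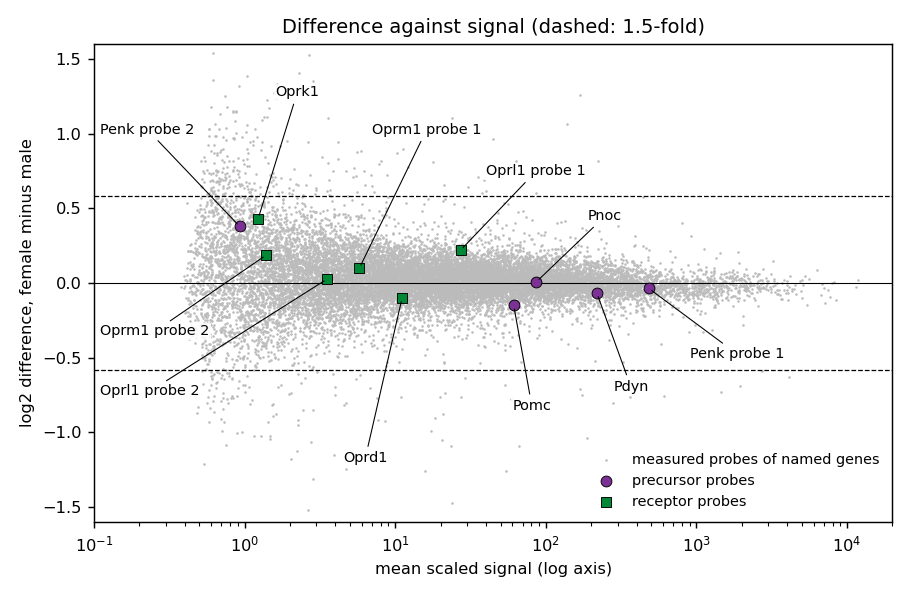
Log2 difference (female minus male) of each measured probe of a named gene against its mean scaled signal (log axis). Grey points are 17210 probes, of which 37 lie outside the vertical range; filled circles are precursor probes, filled squares receptor probes, and dashed lines mark 1.5-fold. All 11 opioid probes lie between the dashed lines, and the spread of the grey points widens toward dim signals, where Oprk1 and the dim Penk probe lie.

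Set side by side by ligand and receptor, the dynorphin pair was -0.068 for Pdyn and 0.43 for the dim Oprk1 probe on the log2 scale. The nociceptin pair was 0.0083 for Pnoc, against 0.22 for the brighter and 0.027 for the dimmer Oprl1 probe. For the enkephalins, the bright Penk probe was at -0.036 and the dim one at 0.38, against -0.10 for Oprd1. Beta-endorphin's precursor Pomc was at -0.15, against 0.099 and 0.19 for the Oprm1 probes. The median difference, from gene values averaged over probes, was -0.030 over the 4 precursors and 0.13 over the 4 receptors. With normexp correction these medians were -0.026 and 0.047, and with spike-in centring 0.044 and 0.21. With the brightest probe of each gene in place of the average, they were -0.052 and 0.16. Precursor probes spanned scaled signals of 0.814 to 489 and receptor probes 1.06 to 29.3. The 2 Penk probes, 600-fold apart in brightness in the male and 450-fold in the female pool for the same accession, show how little such ranges say of transcript amounts.

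For scale, single spots of probes printed at least 8 times differed between the arrays with a median SD of 0.26 on the log2 scale in the dimmest quartile of the signal range (26 probes), 0.11 in the next (44), 0.060 in the third (105) and 0.039 in the brightest (1155). Over genes, the differences had an SD of 0.38, 0.27, 0.15 and 0.13 in the same quartiles. The differences of 6 of the 11 probes exceeded the spot SD of their quartile. These were Pomc at -0.15 and Pdyn at -0.068 against 0.039, the brighter Oprl1 probe at 0.22 and Oprd1 at -0.10 against 0.060, and Oprk1 at 0.43 and the dim Penk probe at 0.38 against 0.26. In the same order, 9.91%, 38.7%, 7.07%, 34.8%, 18.0% and 23.0% of genes in their quartile differed by at least as much. The SD over genes was itself above the spot SD in every quartile, so passing the spot SD is not particular to opioid probes. This spot SD covers the spots of these hybridisations and not animals, pools or labelling. The program's own error of a difference ran from 0.20 to 0.26, and 8 of the 11 differences were below it, Oprk1, the dim Penk probe and the brighter Oprl1 probe being the exceptions. The share of all measured probes past the spot SD or the program's error was not counted.

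The genes that make, break down and respond to opioid peptides were read next, from 6 lists of 60 genes in all, of which 58 were on the array and 54 were measured on both arrays. Past 1.5-fold were 3 of the 54, Mme and Ace on the female and Mrap on the male side, against 2.31% of all measured genes. The median difference of the 54 was 0.0039 on the log2 scale, with 29 genes higher in the female and 25 in the male pool. Over all measured named genes the split was 7457 and 5978.

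All 8 genes of prohormone cleavage and modification were measured and none was past 0.32 on the log2 scale, with a median of 0.018 on the log2 scale. Scg5, the chaperone of prohormone convertase PC2, had scaled signals of 853 in the male and 866 in the female pool. Cpe, the carboxypeptidase that trims basic residues from cut peptides, had 784 and 780. The convertase genes themselves were at log2 differences of 0.024 for Pcsk1 and 0.073 for Pcsk2.

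Of the 8 peptide breakdown genes, all measured, 2 were past 1.5-fold, both higher in the female pool, and the median was 0.012 on the log2 scale. Mme, which encodes neprilysin, the peptidase once called enkephalinase, had a scaled signal of 1.59 in the male and 4.56 in the female pool, 2.87-fold higher in the female pool. Its log2 difference was 1.52, and 0.72 with normexp correction. Ace, the angiotensin-converting enzyme gene, whose product can also cut enkephalins, had 10.3 and 17.4, 1.70-fold higher in the female pool, with its 2 probes at log2 differences of 0.64 and 0.89. Anpep, aminopeptidase N, which removes the first residue of enkephalins, was not past the fold, with scaled signals of 4.36 in the male and 3.72 in the female pool. The female array on which Mme and Ace were higher was also the one with more choroid plexus signal. All 10 markers of that epithelium were past 1.5-fold there, with a median of 2.65 on the log2 scale, and none was below background. Their summed scaled signal was 782 in the male and 9802 in the female pool, of which Ttr alone held 617 and 9325. The part of choroid plexus tissue in the Mme and Ace values, and in those of Oprk1 and Oprl1, was not tested.

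Receptor coupling and desensitisation was read through 19 genes, all measured, and none was past 0.32 on the log2 scale. The median was -0.0016 on the log2 scale, and the range ran from -0.15 for Rgs19 to 0.20 for Arrb1. Gnai2, an inhibitory G protein subunit gene, had scaled signals of 1492 in the male and 1490 in the female pool. Gnai3, another inhibitory subunit gene, had 142 and 139. Of 11 effector genes, 10 were measured and none was past 0.32 on the log2 scale, with a median of 0.022. Prkaca, a catalytic subunit of protein kinase A, had scaled signals of 1134 in the male and 1137 in the female pool, and Kcnj3, an inwardly rectifying potassium channel gene, 47.0 and 42.6. The cyclase gene Adcy1 was not well above background on either array.

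The melanocortin branch of Pomc, which covers the receptors of its non-opioid peptides, was thinly measured: 7 of 9 genes were on the array and 4 were above background on both. Mrap, an accessory protein of melanocortin receptors, had a scaled signal of 3.96 in the male and 1.90 in the female pool, 2.09-fold higher in the male pool, from 1 probe. Its log2 difference was -1.06, and -0.60 with normexp correction. Mc4r, the melanocortin 4 receptor gene of feeding and blood pressure control, was not past the fold, with 20.4 in the male and 18.3 in the female pool. Mc3r and Mc5r were well above background in the female pool alone. Mc3r read 0.385 in the male and 0.663 in the female pool, and Mc5r 0.370 and 0.758. These signals were 1.72-fold and 2.05-fold higher in the female pool. As the male signals were not well above background, these folds are uncertain and are not lower bounds. Mc2r was not well above background on either array. The 5 genes of the last list, chosen for names akin to opioid terms, ranged from -0.21 to 0.12 on the log2 scale, none of them past 0.32. Ogfr, the opioid growth factor receptor gene, had 176 in the male and 160 in the female pool.

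**Figure D3:**
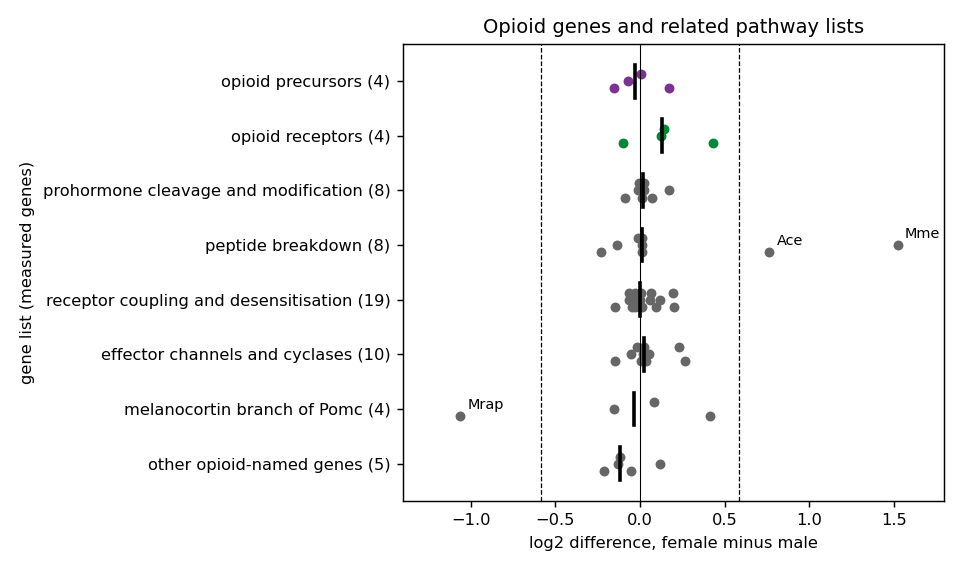
Log2 difference (female minus male) of every measured gene, as the mean over its probes, in the opioid precursors, the opioid receptors and 6 lists of related genes, with the number measured in brackets. Points are genes, shifted vertically for legibility, vertical bars are list medians, and dashed lines mark 1.5-fold. Mme and Ace lie past the line on the female side and Mrap on the male side, and no opioid precursor or receptor lies past either line.

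The labelled tissue was checked against markers. Of 12 genes of NTS and dorsal medulla neurons, the 9 on the array were all measured, with Th at scaled signals of 602 in the male and 532 in the female pool and Prlh at 110 and 146. Gcg, at 43.9 in the male and 30.3 in the female pool, differed most, by -0.53 on the log2 scale, and Prlh was at 0.41. Of the 9, 5 were higher in the female and 4 in the male pool. The median difference was 0.0042 over this list and -0.040 over 6 general neuron genes. All 4 measured blood genes were past 1.5-fold on the male side, with a median of -0.84. Oligodendrocyte genes had a median of -0.23, vagal and hypoglossal motor neuron genes -0.25, astrocyte genes -0.032, microglial genes -0.089, and cerebellar genes 0.18. All 6 motor neuron genes were higher in the male pool, with 1 past 1.5-fold, Calca at -1.31. The 5 measured cerebellar genes were higher in the female pool, with 1 past 1.5-fold, Fat2 at 1.03. Fat2 was dim, with scaled signals of 0.475 in the male and 0.972 in the female pool from 1 probe. In that dimmest quartile of the signal range, 8.85% of genes were past 1.5-fold. Meningeal genes went both ways: the median was 0.24, with 2 genes past 1.5-fold on the female side and 1, Col1a2 at -0.76, on the male side. Their summed scaled signal was 553 in the male and 389 in the female pool, of which Col1a2 alone held 469 and 276. Spike-in centring adds 0.074 to every difference and so turns the small negative medians of the neuron and astrocyte genes positive. The part of these tissue and cell type differences in the opioid values was not tested.

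**Figure D4:**
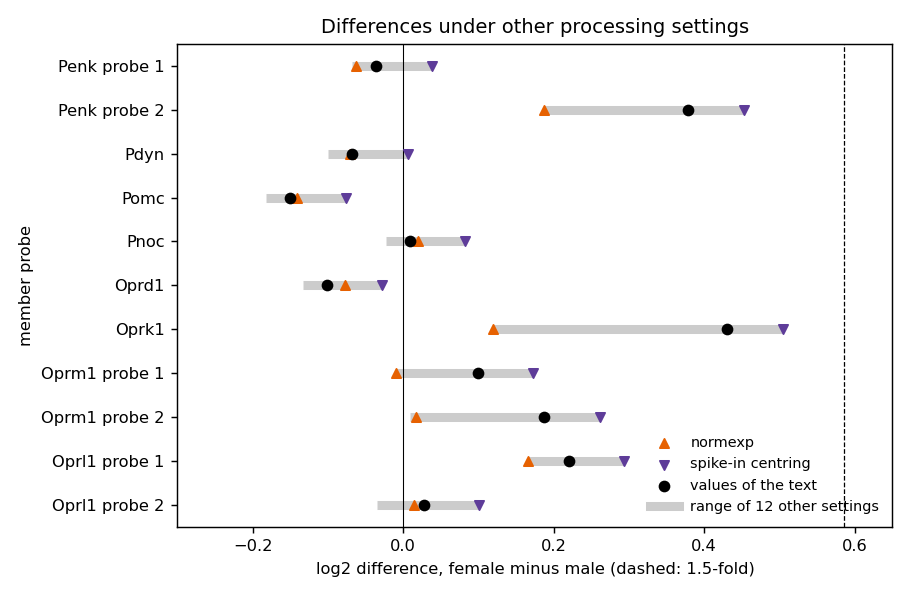
Log2 difference (female minus male) of each opioid probe as reported (black circles), with normexp background correction (upward triangles), with spike-in centring (downward triangles) and over all 12 other settings (grey bars). The dashed line marks 1.5-fold. No bar reaches it; the highest value, 0.50, is that of Oprk1 with spike-in centring.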

How the data were processed

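The authors deposited linear spot intensities, background-corrected with Agilent Feature Extraction (version 9.1 per the submitters' processing notes, 11.5.1.1 per the file headers). The authors' deposited value table holds the same intensities divided by 1 constant per array (22.8 male, 23.4 female; SD of the log2 ratio 0.00046 and 0.00034), so it is linear and not centred. Here, log2 processed intensity minus the 75th percentile of each array was used. Control spots and outlier-flagged spots (284 male, 363 female) were left out, repeated spots averaged, and a probe was measured when well above background on both arrays. Measured probes of a gene were averaged. Of 58717 spots outside the controls, the share well above background was 80.1% (male) and 82.3% (female), and none was saturated; 1 array per sex limits the precision.

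RefSeq gene names (assembly GRCr8) were given to 21109 of 45595 probes through their unversioned transcript accessions. The array design uses an older assembly, so that table gave names only. With 1 array per sex there is no test: genes were counted past 1.5-fold. A gene above background on 1 array was given an uncertain fold. This was its bright signal over the dim array's own signal for the probe or over that array's lowest signal well above background, whichever was higher. All members were named; related genes were named when past 1.5-fold (up to 4 a list), or as the 2 brightest. A gene that this rule picked is not reported here. Others (Pcsk1, Pcsk2, Anpep, Rgs19, Arrb1, Adcy1, Mc2r, Mc3r, Mc4r, Mc5r and the tissue markers) were chosen after their values were seen. The members and lists were chosen with earlier results of these data known. Normexp (offset 50) ran on median spot signals, as the files hold no mean signal. Spike-in centring was added after the data were seen. The code was tested on simulated arrays. Versions were Python 3.11.15, numpy 2.4.6, pandas 2.3.3, R 4.3.3 and limma 3.58.1.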

Additional observations from a re-analysis of the deposited data

How the results depend on the processing

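The count of opioid genes past 1.5-fold was 0 in all 12 other settings that keep this fold and at 2-fold, and 1 past a log2 difference of 0.32. Some of these settings could not change it. Dropping the filter on dim probes, taking the median of probes and keeping flagged spots left every opioid value as it was. The authors' table, the same intensities over a constant per array, gave nearly the same values. Among related genes the count was 3, the same genes Mme, Ace and Mrap, except for 7 with no filter on dim probes, which adds Adcy1 and Mc2r, below background in both pools, and Mc3r and Mc5r, below it in the male pool. It was 2 at 2-fold and 4 past 0.32. The member median ran from -0.036 in the brighter probes, where Oprk1 and the dim Penk and Oprm1 probes dropped out, to 0.14 with spike-in centring, a setting chosen after seeing the data. Of the 11 probes, 6 kept their direction under the 7 settings that use another signal or scaling, among them the authors' table with its nearly equal values. The others turned at values near 0: the bright Penk probe was 0.038 and Pdyn 0.0061 with spike-in centring, Pnoc -0.023 with median centring, the brighter Oprm1 probe -0.0091 with normexp, and the dimmer Oprl1 probe -0.012, -0.0046 and -0.035 with quantile, median and loess scaling. Normexp took Mme from 1.52 to 0.72 and Mrap from -1.06 to -0.60, both still past 1.5-fold. Dim probes limit the reading of Oprk1, Oprm1 and the dim Penk probe. No paired analysis was possible because a single pool stands for each sex; for the same reason no replicate could be left out.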

Other observations

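Both Penk probes carry the same transcript accession, yet one was in the brightest and the other in the dimmest quartile of the signal range. Of 2450 named accessions with several measured probes, the median ratio of the brightest to the dimmest probe was 4.19, and 6 accessions (0.245%), Penk among them, had a ratio at least as large as that of Penk. The probe sequences were not used here, so which part of the transcript each probe reads is not known from these data.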
